A study of Mus musculus with 3 samples.

Results

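The genes described here encode the classical axon guidance ligands and receptors: semaphorins of classes 3 to 7 with plexins and neuropilins, ephrins with Eph receptors, Slits with Robo receptors, and netrins with Dcc and the Unc5 receptors. They were taken as every row of the count tables whose gene symbol matched a fixed name pattern of these families, which gave 70 of 32531 gene rows. Of the 70, 69 are protein-coding and 1, Plxna4os1, is an antisense transcript at the plexin-A4 locus, with a count of 0 in all 3 libraries. All 70 were found by symbol in GENCODE M21, whose GRCm38 coordinates are those of mm10. The libraries come from translating ribosome affinity purification (TRAP), in which ribosomes that carry a tagged subunit are pulled down with their messenger RNA. They comprise 3 immunopurified replicates from the cerebral cortex of adult, untreated Kcnip2-EGFP/Rpl10a mice (line NIDA115, C57BL/6J), which express the ribosomal protein L10a fused to EGFP under regulatory sequences of Kcnip2, an auxiliary subunit gene of Kv4 potassium channels. These 3 libraries form 1 group. Input RNA and wild-type tissue were not analysed here, and a level therefore shows RNA in the immunoprecipitate, background included, and not enrichment over cortex. The labels do not say whether the replicates are separate animals or pools, so the spread between them may be technical.

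Guidance cues were named for steering growing axons, and many of their genes stay active in the adult brain, where several act at synapses and on dendritic spines. Semaphorins signal through plexins, and the secreted class 3 members mostly need a neuropilin as co-receptor. Ephrin-A ligands are tethered by a lipid anchor and ephrin-B ligands span the membrane, and both signal to Eph receptor tyrosine kinases on neighbouring cells. Slits signal through Robo receptors and are best known as repellents. Netrin-1 attracts axons through Dcc and repels them through Unc5 receptors.

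Gene counts numbered 11602248 in replicate 1, 13635132 in replicate 2 and 14174384 in replicate 3. Members took 0.270%, 0.291% and 0.281% of them. Levels are in CPM: reads of a gene per 1000000 gene reads, after scaling of library sizes. To compare one gene with another, CPM was divided by the summed length of all annotated exons of the gene in kilobases, written CPM/kb. That length exceeds the longest annotated transcript by up to 2.68-fold among the members, so each comparison was repeated with the longest transcript as divisor. Values of 3 libraries are given in the order of replicates 1, 2 and 3, and means carry the SD (n = 3). An exact two-sided sign-flip test over 3 libraries cannot go below p = 0.25, so by that test no ratio between members could pass 0.05. No other test was run on them, and ratios are described by their size, their SD and the number of libraries with the same sign.

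Of the 70 members, 55 (78.6%) were detected, that is, at 1 CPM or more in all 3 libraries. The same rule was passed by 37.3% of all gene rows and by 56.5% of protein-coding rows. A level of 10 CPM or more in all libraries was reached by 36 members (51.4%, against 36.8% of protein-coding rows) and 100 CPM by 6 (8.57%, against 9.15%). Those 6 were Plxna4, Plxna2, Robo2, Epha4, Sema5a and Epha7. Among the 57 members past the count filter the median level was 3.27 CPM/kb, against 4.56 CPM/kb over the 11723 filtered genes with a length. Of the 57 members past the filter, 22 lay above that second median. In CPM without a length the medians did not differ in that direction, at 20.8 for these 57 members and 20.1 for all 12509 genes past the filter. The 10 highest members supplied 53.1% of the summed CPM/kb of all 70 members.

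**Figure D1:**
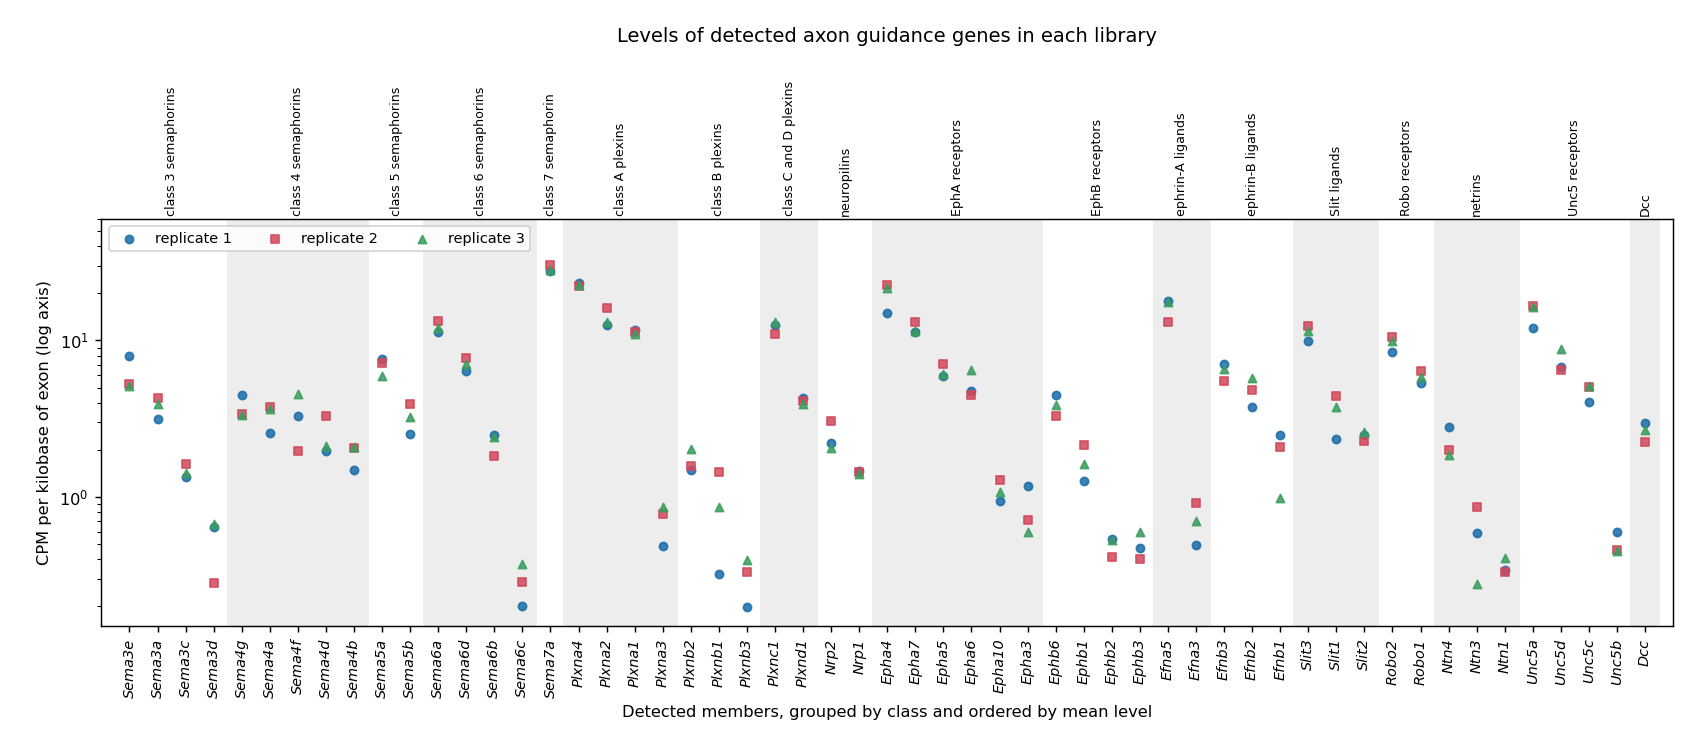
Level of each of the 55 detected members in CPM per kilobase of exon on a log axis, with 1 marker for each of the 3 libraries and members grouped by class. Sema7a, Plxna4 and Epha4 lie highest, and the spread between libraries is widest among members of low level such as Plxnb1, at 0.320, 1.43 and 0.864.

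Sema7a, the lipid-anchored semaphorin, had the highest mean level of all members per kilobase, by either divisor. It was at 27.9, 30.3 and 28.3 CPM/kb (28.8 ± 1.26), and by this divisor its libraries did not overlap those of any other member. The gene lies at chr9:57940112-57962865 on the plus strand. Plexin-C1, encoded by Plxnc1, is its plexin receptor and was at 12.6, 10.95 and 13.2 CPM/kb. Sema7a exceeded Plxnc1 by a log2 ratio of 1.24 ± 0.20, in 3 of 3 libraries, and by 1.05 with the longest transcript as divisor.

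The opposite end of the semaphorin family was Sema3g, a class 3 member known from vascular cells, with no count in any library. A count of 0 allows levels of up to 0.256, 0.222 and 0.213 CPM (3 counts, for counting error only). The start regions of both genes are shown because the genes stand at the ends of the range of levels. The pair was chosen after these values were seen, and its windows differ in CpG dinucleotides, a feature of many broadly used promoters. Each run covers 250 bases before to 50 bases after the RefSeq start (GRCm38.p6), written along the gene's strand, with CpG dinucleotides in capitals. The window of Sema7a is chr9:57939862-57940161 on the plus strand and that of Sema3g is chr14:31217623-31217922 on the plus strand.
Sema7a: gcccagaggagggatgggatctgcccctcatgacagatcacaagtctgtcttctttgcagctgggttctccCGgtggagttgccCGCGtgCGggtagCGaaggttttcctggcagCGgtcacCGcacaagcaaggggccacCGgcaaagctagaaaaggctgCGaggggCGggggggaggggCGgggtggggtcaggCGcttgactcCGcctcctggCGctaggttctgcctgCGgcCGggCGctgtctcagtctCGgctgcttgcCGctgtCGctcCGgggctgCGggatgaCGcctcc
Sema3g: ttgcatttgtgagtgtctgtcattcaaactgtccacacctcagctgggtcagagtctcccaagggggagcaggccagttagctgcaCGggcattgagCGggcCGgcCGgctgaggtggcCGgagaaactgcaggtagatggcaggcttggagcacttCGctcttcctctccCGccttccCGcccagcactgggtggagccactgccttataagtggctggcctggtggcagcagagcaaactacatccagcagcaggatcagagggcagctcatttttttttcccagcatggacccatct
The Sema7a window held 23 CpG dinucleotides, a ratio of observed to expected CpG of 0.690, and the Sema3g window 8, a ratio of 0.310. The window of Epha4, the third highest member, held 17 and had a ratio of 0.565. Windows were found for 59 of the 70 members, and 35 of these (59.3%) had a ratio of 0.6 or more, against 49.98% of 15469 protein-coding rows with a window. Among members, 63.8% of the 47 detected and 41.7% of the 12 not detected reached 0.6. The shares were 74.3% of detected and 17.7% of undetected protein-coding rows, a difference in the same direction. The gaps were not tested against each other. These are letter counts, and nothing about a factor at these starts was measured.

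Among the 7 secreted class 3 semaphorins, 4 were detected and their summed level was 12.2 ± 0.938 CPM/kb. Sema3e, the ligand of plexin-D1, led at 7.94, 5.30 and 5.15 CPM/kb and was highest in replicate 1. Sema3a, the classical repellent that acts through neuropilin-1, was at 3.14, 4.28 and 3.95 CPM/kb, lowest in replicate 1. Sema3e was above Sema3a in all libraries by this divisor, but with the longest transcript Sema3a led the class by the mean, at 43.8% of its sum against 40.7%, so the order of the leaders is not fixed. Sema3c was lower, at 1.34, 1.62 and 1.43 CPM/kb. Sema3d, at 5.54, 2.44 and 5.81 CPM, was lowest in replicate 2. Sema3f, which acts through neuropilin-2, was at 1.36, 0.738 and 2.13 CPM and fell short of detection in replicate 2 alone. Sema3a exceeded Sema3f by a log2 ratio of 3.92 ± 0.87, in 3 of 3 libraries. All 12 counts of Sema3b were in replicate 2.

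Their co-receptors are the 2 neuropilins. Nrp2 was at 2.22, 3.06 and 2.06 CPM/kb and Nrp1 at 1.46, 1.43 and 1.40. Nrp1 was the steadier gene, and Nrp2 was highest in replicate 2. The Nrp1 to Nrp2 log2 ratio was -0.75 ± 0.30, negative in 3 of 3 libraries, and shrank to -0.14 with the longest transcript, a value within its SD of 0.30. Class 3 semaphorins exceeded neuropilins as sums by 1.67 ± 0.24 on the log2 scale (1.86, 1.40 and 1.75), and by 1.32 with the longest transcript. These sums cover 7 and 2 genes. As single genes, by mean CPM/kb, Nrp2 was above 5 of the 7 class 3 semaphorins and Nrp1 above 4, and with the longest transcript both were above all of them except Sema3a and Sema3e.

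By CPM/kb, no single gene led the transmembrane class 4 semaphorins in all libraries. Of the 6 members, which signal largely through class B plexins, 5 were detected, and a different gene led in each library: Sema4g in replicate 1, Sema4a in replicate 2 and Sema4f in replicate 3. Sema4g was at 4.47, 3.38 and 3.35 CPM/kb, Sema4a at 2.55, 3.74 and 3.66 and Sema4f at 3.30, 1.97 and 4.54. Their ranges overlapped, so no order among them can be given by this divisor. With the longest transcript Sema4g led by the mean, at 29.7% of the class sum against 23.2% for Sema4a and 17.5% for Sema4f. In CPM without a length Sema4g led in each library, at 38.7, 29.2 and 29.0. Sema4d, the ligand of plexin-B1, was at 1.98, 3.31 and 2.10 CPM/kb, below Sema4a in each library (Sema4a to Sema4d log2 ratio 0.45 ± 0.32). Sema4b was at 1.48 to 2.10 CPM/kb, and Sema4c was not detected, with 12, 15 and 8 counts.

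Of the class 5 semaphorins, which carry thrombospondin repeats, Sema5a was at 7.56, 7.15 and 5.88 CPM/kb and Sema5b at 2.52, 3.90 and 3.25. Sema5a was the higher in 3 of 3 libraries (log2 ratio 1.11 ± 0.42). Among the 4 class 6 members, transmembrane ligands of class A plexins, Sema6a led at 11.3, 13.3 and 11.95 CPM/kb, followed by Sema6d at 6.36, 7.73 and 7.10. Sema6a exceeded Sema6d by nearly the same amount in each library, at log2 ratios of 0.82, 0.79 and 0.75. This was 0.43 with the longest transcript. Sema6b was at 2.49, 1.82 and 2.41 CPM/kb and Sema6c at 0.201, 0.286 and 0.370. As sums, all semaphorins exceeded all plexins by a log2 ratio of 0.37 ± 0.02, which turned to -0.31 in CPM without a length. These sums cover more semaphorin than plexin genes and were not divided by gene number.

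Class A plexins, the receptors of class 6 semaphorins and, with neuropilins, of class 3, had a summed level of 48.6 ± 1.75 CPM/kb, next to which only the EphA receptors came close. The order of these classes is not fixed: EphA receptors were higher in replicate 3, at 47.7 against 47.3 CPM/kb, and with the longest transcript they led by the mean, at 67.4 ± 7.50 against 58.6 ± 2.77. Plxna4 (chr6:32144268-32588192, minus strand) was at 23.2, 22.4 and 22.5 CPM/kb with a coefficient of variation of 1.94%, the lowest of all detected members. Plxna2 was at 12.5, 16.1 and 13.02 CPM/kb, highest in replicate 2, and Plxna1 at 11.7, 11.3 and 10.9. Plxna4 led in 3 of 3 libraries, by a log2 ratio of 0.72 ± 0.22 over Plxna2. With the longest transcript the ratio was 0.21, within its SD of 0.22. Plxna3 stood far below, at 0.487, 0.778 and 0.863 CPM/kb, and Plxna1 exceeded it by a log2 ratio of 4.04 ± 0.49, 16.4-fold. Exons of a predicted gene on the opposite strand cover 10.7% of the Plxna1 exon length, and without strand information its reads cannot be told apart from those of Plxna1.

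**Figure D2:**
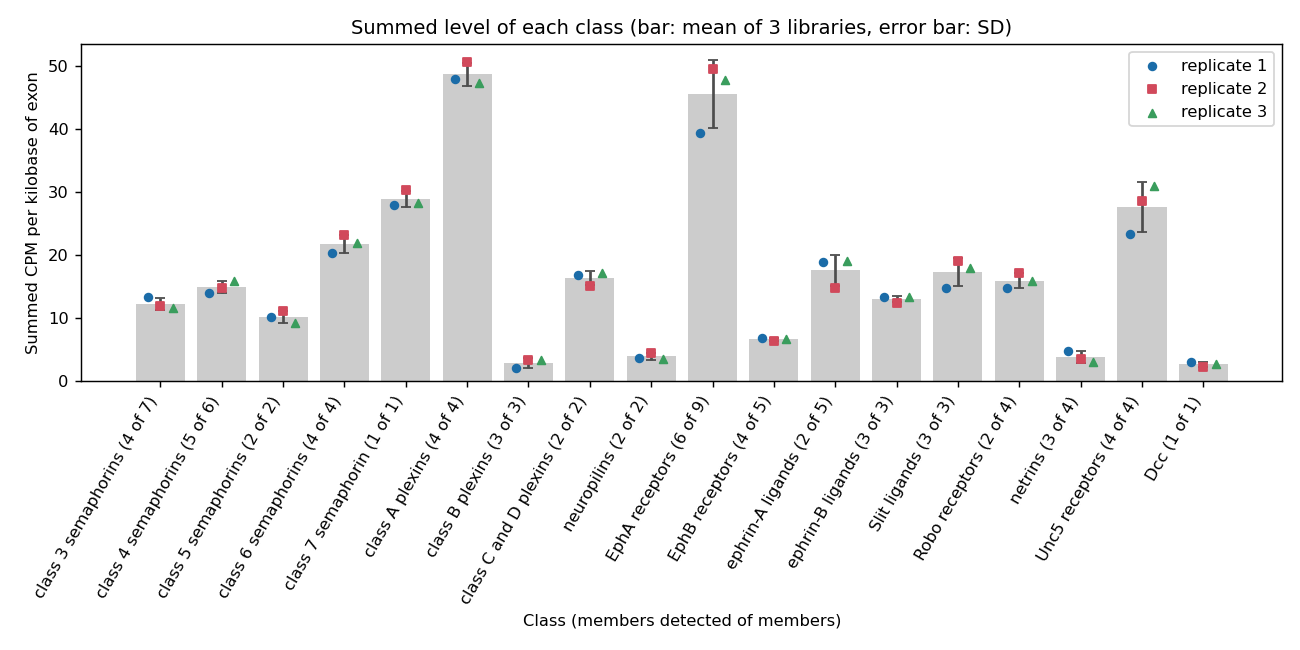
Summed CPM per kilobase of exon for each class, with bars for the mean of 3 libraries, error bars for the SD and 1 marker for each library, and members detected of members in brackets. Class A plexins (48.6) and EphA receptors (45.5) are the tallest bars, and class B plexins (2.88) and Dcc (2.62) the lowest.

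The 3 class B plexins, receptors of class 4 semaphorins, summed to 2.88 ± 0.754 CPM/kb. Plxnb2 was at 1.49, 1.57 and 2.04 CPM/kb. Plxnb1 was at 0.320, 1.43 and 0.864 CPM/kb, from 36, 186 and 117 counts, the widest highest-to-lowest ratio of any detected member at 4.48-fold. Plxnb1 was below Plxnb2 in 3 of 3 libraries, at log2 ratios of -2.22, -0.13 and -1.24, far in replicate 1 and by little in replicate 2. Plxnb3, known from oligodendrocytes, was at 0.197, 0.330 and 0.393 CPM/kb. Plexin-D1, encoded by Plxnd1 and known from vessels as well as neurons, was at 4.28, 4.11 and 3.95 CPM/kb. It lay below Plxnc1 (Plxnd1 to Plxnc1 log2 ratio -1.57 ± 0.16) and below its ligand gene Sema3e (Sema3e to Plxnd1 log2 ratio 0.55 ± 0.30), each in 3 of 3 libraries. Against the class A plexin gene Plxna1, the ligand gene Sema6d was lower (Sema6d to Plxna1, -0.69 ± 0.17), but with the longest transcript the ratio was 0.0234.

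EphA receptors summed to 45.5 ± 5.43 CPM/kb, although only 6 of 9 were detected. Epha4 (chr1:77367185-77515088, minus strand), an unusual receptor that binds ephrins of both kinds, supplied 43.03% ± 4.34 of the class. It was at 14.9, 22.6 and 21.6 CPM/kb, with replicate 1 below the others. Epha7 was at 11.3, 13.1 and 11.5 CPM/kb and Epha5 at 5.93, 7.04 and 6.10. Epha4 exceeded Epha7 by a log2 ratio of 0.70 ± 0.27 and Epha5 by 1.61 ± 0.25, each in 3 of 3 libraries. The second value was 0.77 with the longest transcript. Epha6 was highest in replicate 3, at 4.74, 4.51 and 6.43 CPM/kb. Epha10, whose kinase domain is inactive, was at 0.935, 1.29 and 1.08 CPM/kb and Epha3 at 1.17, 0.714 and 0.595. Epha1, Epha2 and Epha8 were not detected, with 8, 11 and 27 counts in all.

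EphB receptors were lower as a class, at 6.58 ± 0.240 CPM/kb. The log2 ratio of EphA to EphB sums was 2.78 ± 0.22 (2.54, 2.97 and 2.84), 6.87-fold, positive in 3 of 3 libraries. Ephb6, a receptor without kinase activity, led the class in all libraries at 4.47, 3.29 and 3.85 CPM/kb. Ephb1 was at 1.27, 2.15 and 1.63 CPM/kb and Ephb2 at 0.541, 0.410 and 0.528. Ephb6 and Ephb1 exceeded Ephb2, by log2 ratios of 2.97 ± 0.10 for Ephb6 and 1.75 ± 0.59 for Ephb1, each in 3 of 3 libraries. Ephb3 was at 0.400 to 0.597 CPM/kb. Ephb4, the receptor of venous endothelium, had 1, 4 and 4 counts.

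A single gene made up most of the ephrin-A ligands. Efna5 supplied 92.3% ± 3.16 of their summed CPM/kb, at 17.9, 13.1 and 17.7 CPM/kb, lowest in replicate 2. Efna3 was at 0.490, 0.910 and 0.699 CPM/kb, and the Efna3 to Efna5 log2 ratio was -4.57 ± 0.68, Efna3 being 23.7-fold lower. Efna2, at 0.852, 1.18 and 0.779 CPM, passed the threshold in replicate 2 alone. Efna1 and Efna4 had 10 and 2 counts in all. Efna3 shares 14.1% and Efna4 10.5% of exon length with genes on the opposite strand.

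The 3 ephrin-B ligands were all detected. Efnb3 was at 7.10, 5.48 and 6.52 CPM/kb, Efnb2 at 3.76, 4.84 and 5.77 and Efnb1 at 2.49, 2.08 and 0.985. Efnb1 was lowest in replicate 3 and Efnb2 in replicate 1, so their log2 ratio ranged from -2.55 to -0.59 (mean -1.45). The mean Efnb2 to Efnb3 log2 ratio was -0.42 ± 0.43, no more than its SD, and the sign turned with the longest transcript (0.0914). Ephrin-A ligands exceeded ephrin-B ligands as sums by a log2 ratio of 0.42 ± 0.15 in 3 of 3 libraries, and by 0.20 with the longest transcript. As sums, Eph receptors exceeded ephrins by a log2 ratio of 0.77 ± 0.26. The receptor sum covers 9 EphA and 5 EphB genes and the ephrin sum 5 and 3 genes, and neither was divided by gene number.

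**Figure D3:**
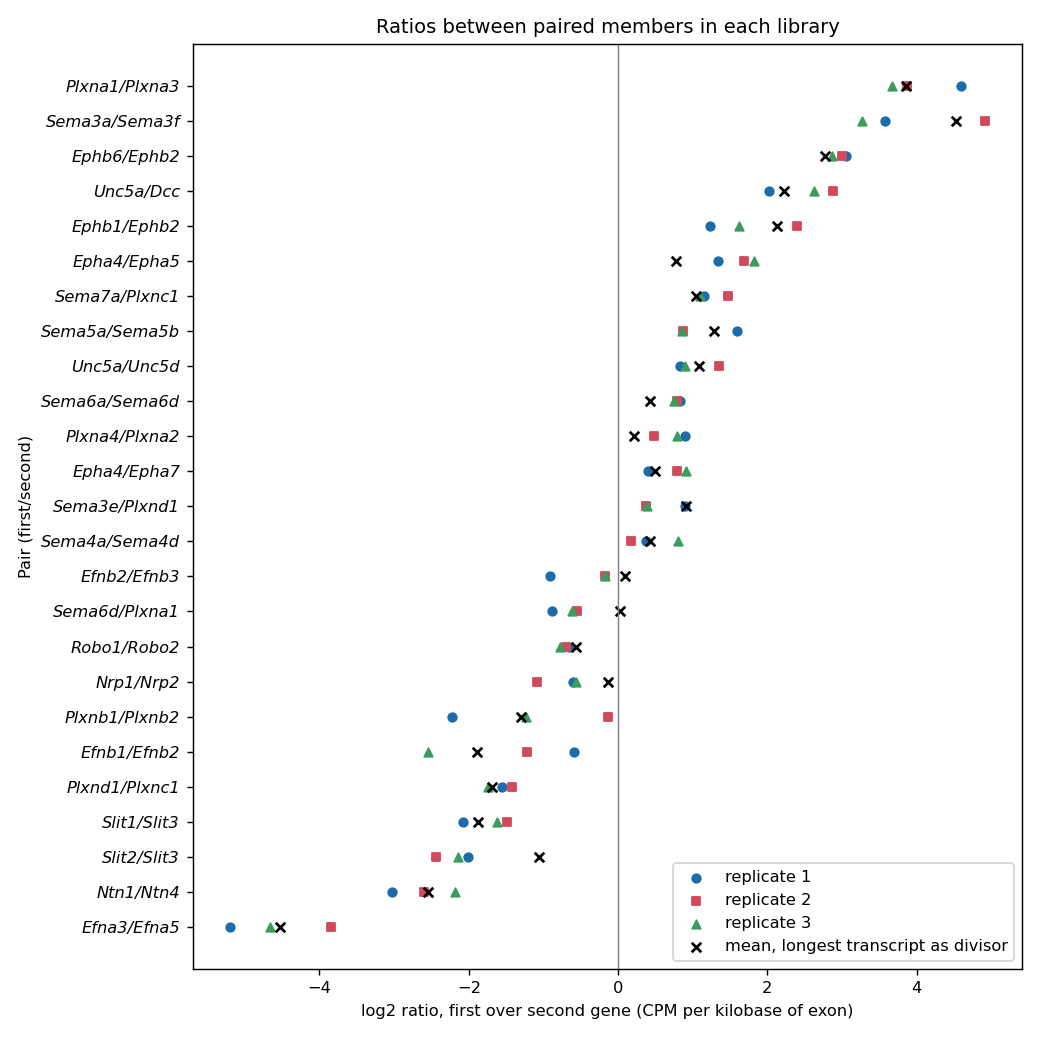
The log2 ratio of CPM per kilobase of exon for 25 pairs of members, with 1 marker for each library and a cross for the mean with the longest transcript as divisor. In all 25 pairs the 3 libraries lie on the same side of 0, and for Efnb2/Efnb3 and Sema6d/Plxna1 the cross lies on the other side. The pairs were chosen with earlier results of these data known.

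Slit ligands, all 3 detected, summed to 17.2 ± 2.20 CPM/kb. Slit3 led at 9.96, 12.3 and 11.5 CPM/kb, ahead of Slit1 at 2.36, 4.42 and 3.76 and Slit2 at 2.47, 2.29 and 2.61. Slit1 and Slit2 were below Slit3 in 3 of 3 libraries, with log2 ratios to it of -1.73 ± 0.31 and -2.20 ± 0.22. The annotated exons of Slit2 sum to far more than its longest transcript, and with the latter as divisor its ratio to Slit3 was -1.06. Slit1 was lowest in replicate 1 and Slit2 differed little between libraries.

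Of the Robo receptors, Robo2 was at 8.45, 10.4 and 9.94 CPM/kb and Robo1 at 5.38, 6.42 and 5.81, together nearly all of the class. Robo1 was below Robo2 by almost the same amount in each library (Robo1 to Robo2 log2 ratios -0.65, -0.70 and -0.78). Robo3, known from commissural axons, had 55, 19 and 13 counts and was highest in replicate 1. Robo4, the endothelial member, had 12, 4 and 0 counts. Slits and Robos were near parity as sums (log2 ratio 0.11 ± 0.09), and the sign turned with the longest transcript, at -0.49.

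Netrins were the lowest ligand class. Ntn4, a laminin-related netrin also found in basement membranes, led at 2.78, 1.99 and 1.86 CPM/kb. Ntn1, the classical attractant, was at 0.339, 0.329 and 0.406 CPM/kb, from 25, 28 and 36 counts. The Ntn1 to Ntn4 log2 ratio was -2.61 ± 0.42, negative in 3 of 3 libraries. Ntn3 was at 0.584, 0.867 and 0.277 CPM/kb, lowest in replicate 3, and shares exon sequence with neighbours. Ntn5 had 28, 8 and 13 counts, and 23.4% of its exon length overlaps Sec1 on the opposite strand. In all, 18 of the 70 members share exon bases with another gene, 4 of them over more than 10% of their length.

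As sums, netrin receptors were well above their ligands, but this did not hold for each receptor gene. By mean CPM/kb, Dcc (2.62) was above Ntn4 (2.21) but below the summed netrins (3.73), and Unc5b (0.504) was below Ntn4. Unc5a led the Unc5 family at 11.9, 16.6 and 16.5 CPM/kb, lowest in replicate 1. Unc5d, marked by its expression in cortical layer 4, was at 6.73, 6.496 and 8.84 CPM/kb and Unc5c at 4.01, 5.02 and 5.14. Unc5a exceeded Unc5d by a log2 ratio of 1.03 ± 0.28 in 3 of 3 libraries. Unc5b, prominent in endothelium, was at 0.599, 0.460 and 0.453 CPM/kb. Dcc was at 2.95, 2.25 and 2.67 CPM/kb, and Unc5a exceeded it by 2.51 ± 0.44 on the log2 scale, 5.68-fold. In CPM without a length this log2 ratio was 0.85, and that of Unc5a to Unc5d turned to -0.12. As sums, netrins were 8.22-fold below Dcc and Unc5 (log2 ratio -3.04 ± 0.53, and -3.21 with the longest transcript).

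**Figure D4:**
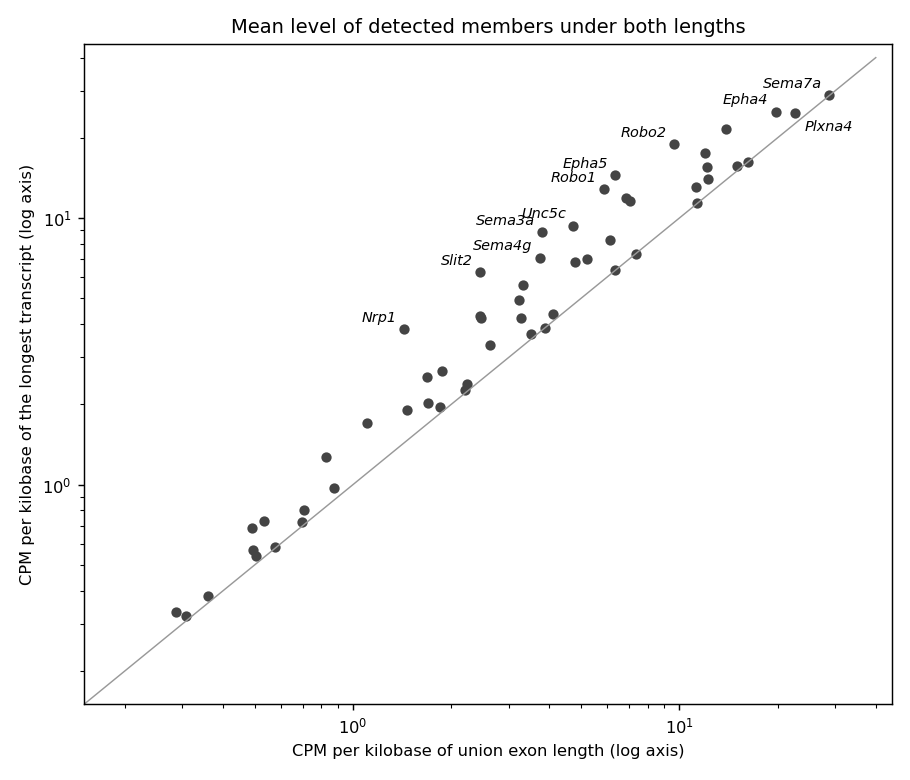
Mean level of the 55 detected members per kilobase of all annotated exons (horizontal) and per kilobase of the longest transcript (vertical), both on log axes, with the diagonal marking equal values. Nrp1, Slit2, Sema3a and Epha5 lie farthest above the diagonal, and 8 of the 10 highest members are shared by both scales.

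Markers of other cell types bear on how these levels are read. In an immunoprecipitate, the number of cells of a type, their RNA per cell, their share of tagged ribosomes and untagged background cannot be told apart. The 11 pan-neuronal markers were all detected and summed to 40711, 43742 and 47116 CPM. Most of that sum was Snap25, at 31380, 33130 and 36012 CPM, and the median of the 11 was 659 CPM. All 7 glutamatergic and 8 GABAergic markers were detected as well. Endothelial and mural markers summed to 20.7, 30.4 and 23.3 CPM, with 5 of 9 detected and the tight junction gene Cldn5 at 0.0568 CPM on average. Of 5 members typical of vascular cells, Plxnd1 and Unc5b were detected and Ephb4, Robo4 and Sema3g were not. Oligodendrocyte markers, 7 of 8 detected, summed to 607, 738 and 555 CPM, highest in replicate 2. By gene, Mbp was highest in replicate 1, Mag and Opalin in replicate 3 and the others in replicate 2. Of the members known from that lineage, Sema6a was at 98.8, 117 and 105 CPM and Sema4d at 15.2, 25.4 and 16.2. Both were highest in replicate 2, and so were 24 (42.1%) of all 57 members tested, against 32.8% of all genes tested. Plxnb3, at 1.28, 2.14 and 2.55 CPM, was highest in replicate 3. The part of oligodendrocyte RNA in these values was not tested.

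Most genes of a list chosen for the wider pathway were detected beside the ligands and receptors. Of these 63 other genes of guidance signalling (co-receptors, adhesion partners, adaptors and cytoskeletal effectors), 59 were detected. The same rule was passed by 56.5% of protein-coding rows, and the list was chosen with earlier results of these data known. The 5 highest per kilobase were the GTPase gene Rac1 at 304 ± 0.728 CPM/kb, its effector kinase gene Pak1 at 290.1 ± 9.23, the actin-severing cofilin gene Cfl1 at 219.6 ± 10.8, the chimaerin gene Chn1, which acts downstream of Epha4, at 152 ± 10.3, and Srgap3, of the Slit-Robo GTPase-activating protein family, at 128 ± 8.19. Each of the 5 was above every ligand and receptor member. They were picked by this same value, and the median of the 63 was 10.4 CPM/kb. The 4 not detected were Mical1, Vav2, Kdr and Draxin.

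No member passed the test for more variation between libraries than genes of its level show. By edgeR's quasi-dispersion test with Benjamini-Hochberg adjustment, 12 of 12509 genes (0.0959%) passed and 0 of the 57 members tested did, the lowest adjusted p among members being 0.487. The count over all genes was 4 without replicate 2 and 66 with no count filter, with 0 members in each. DESeq2's dispersion outlier rule marked 28 genes and 0 members. At an unadjusted p below 0.05, 5 members (8.77%) stood against 5.78% of all genes. They were Plxnb1 (edgeR adjusted p = 0.487), Epha4 (adjusted p = 0.702), Robo3 (adjusted p = 0.738), Sema4f (adjusted p = 0.762) and Sema3e (adjusted p = 0.805), so none of these passed after adjustment. Epha4 was at 120.3, 182 and 174 CPM and Plxnb1 at 3.07, 13.7 and 8.29, both lowest in replicate 1. Sema3e, at 73.7, 49.2 and 47.8 CPM, and Robo3, at 4.69, 1.40 and 0.921, were highest there. Sema4f, at 17.5, 10.4 and 24.02 CPM, was lowest in replicate 2.

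Among detected members the largest highest-to-lowest ratios after the 4.48 of Plxnb1 were 3.13 for Ntn3, 2.53 for Efnb1, 2.38 for Sema3d and 2.31 for Sema4f, all below 25 CPM in every library. Replicate 1 held the lowest value of 28 of the 57 members (49.1%), against 36.6% of all genes tested, and the median log2 deviation of the members in it was -0.10, against -0.000575 for all genes. Astrocyte markers were also lowest in replicate 1, with summed levels of 1534, 2465 and 2159 CPM and 8 of 8 detected, but by gene 6 of the 8 were lowest there, while Gfap, at 14.8, 11.8 and 11.5 CPM, and Aldh1l1, at 9.80, 5.46 and 7.08, were highest there. Glutamatergic markers were lowest in replicate 1 as a sum, at 7112, 8731 and 9673 CPM, and in 7 of 7 genes. GABAergic markers had no such order, with sums of 2440, 2253 and 2623 CPM. Of these 8 genes 5 were highest in replicate 1, among them Pvalb at 195, 117 and 99.9 CPM, and 2 were lowest there, Vip and Sst. Sst, at 429, 551 and 895 CPM, was the 1 of the 8 to pass the variation test (edgeR adjusted p = 0.0193). The part of RNA from these cell types in the members' deviations was not tested.

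**Figure D5:**
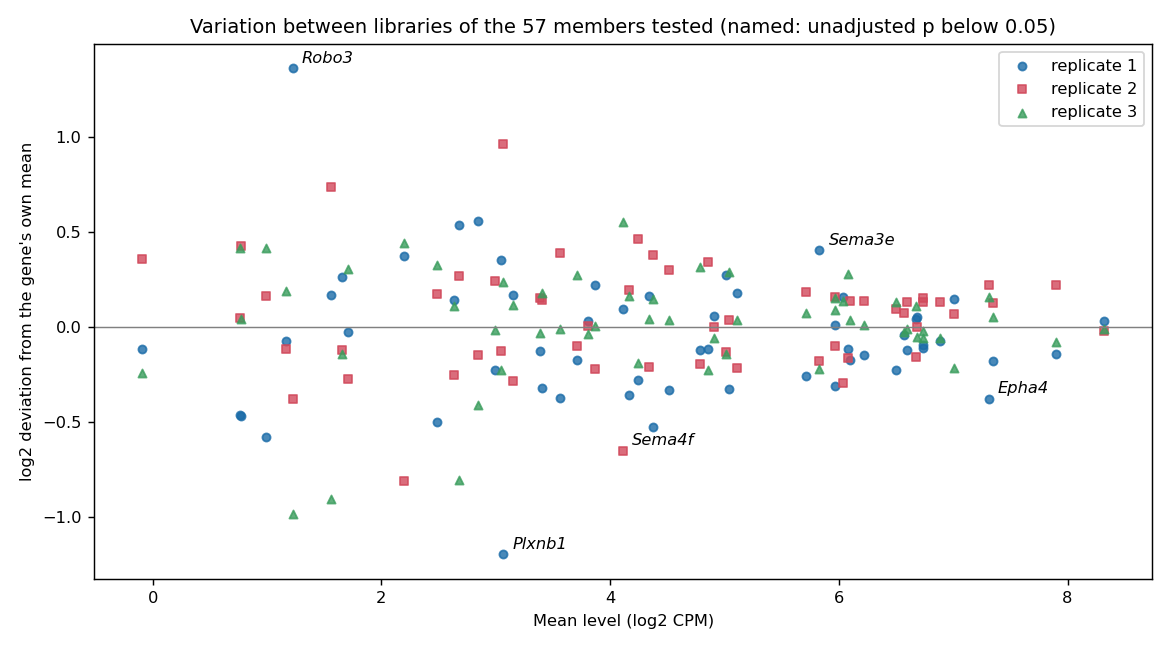
Deviation of each library from the gene's own mean on the log2 scale (vertical) against mean log2 CPM (horizontal) for the 57 members tested, 1 marker for each library. The 5 named genes had an unadjusted p below 0.05 and none passed adjustment over 12509 genes, and members at higher levels lie closer to 0.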

How the data were processed

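RNA bound to tagged ribosomes from cortex was sequenced in 3 libraries. Each deposited table holds raw read counts by gene symbol, without normalization. STAR 2.0.0e, HTSeq and the mm10 build are named in the submitters' processing notes. Strand handling, counting mode and the annotation's release were not given in the sources used here. Of the reads tallied, 12.8% to 16.4% fell in no feature, 2.37% to 2.65% were ambiguous and 13.8% to 19.4% did not align uniquely. These rows stayed out of library sizes and tests. Every pair of libraries differed beyond counting noise (chi-square of 12.3 to 28.5 per degree of freedom), so each was kept.

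Library sizes were scaled by TMM (edgeR 4.0.16, R 4.3.3). Exon lengths came from GENCODE M21, matched by symbol for 23155 rows, and start regions from RefSeq tables on GRCm38.p6. Variation between libraries was tested with edgeR's quasi-likelihood fit (robust, intercept only) over genes past filterByExpr (minimum count 10), as the F ratio of each gene's quasi-dispersion to the trend, with the prior degrees of freedom of genes that are not outliers. The procedure was tested on simulated data. Alternatives were DESeq2 1.42.0 size factors and dispersion outliers, other thresholds, lengths and filters, and leaving out each library. Values in every library were given for the 3 highest members of a class, members of the 25 fixed pairs, and the most variable ones. Members, pairs and lists were chosen with earlier results of these data known.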

Additional observations from a re-analysis of the deposited data

How the results depend on the processing

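The number of detected members, 55, was the same with DESeq2 size factors, 60 at a threshold of 0.5 CPM, 44 at 5 CPM, and 55 to 57 without 1 of the replicates. No member passed the variation test under any of the 6 alternatives, while the count of all genes ranged from 4 (replicate 2 left out) to 66 (no filter). Size factors cancel in a ratio within 1 library, and leaving out 1 of 3 values cannot move a mean by as much as the SD. These settings therefore could not move a ratio by more than its SD, and say nothing about its stability. The length divisor could move ratios, and did. With the longest transcript the log2 ratio was 3.12 for EphA over EphB receptors, 0.20 for ephrin-A over ephrin-B ligands, 1.32 for class 3 semaphorins over neuropilins, 0.58 for semaphorins over plexins and 1.20 for Eph receptors over ephrins, and Slits over Robos turned to -0.49. In CPM without a length these were 3.56, 0.19 and, for Eph receptors over ephrins, 1.86, with netrins over their receptors at -4.14, and Slits over Robos (-0.79) and semaphorins over plexins (-0.31) turned. Of the 25 pairs, 21 with the longest transcript and 20 without a length had 1 sign in all libraries. Pairs whose mean turned were Sema6d/Plxna1 (0.0234) and Efnb2/Efnb3 (0.0914) with the longest transcript, and Efnb2/Efnb3 (0.68), Sema7a/Plxnc1 (-0.10), Sema4a/Sema4d (-0.0576) and Unc5a/Unc5d (-0.12) without a length. Another 8 pairs with the longest transcript and 15 without a length moved by more than their SD and kept their sign. The widest of these 15 moves were those of Slit2/Slit3 (-0.13), Ephb6/Ephb2 (1.23), Unc5a/Dcc (0.85), Sema3a/Sema3f (5.34), Sema5a/Sema5b (2.51), Epha4/Epha5 (0.56), Ephb1/Ephb2 (0.90), Ntn1/Ntn4 (-1.86) and Efna3/Efna5 (-5.30). No paired analysis was possible because the 3 libraries form 1 group. The 13 members with reads that were not detected had 2 to 87 counts each over the 3 libraries, so counting error is wide for them.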
